A study of Homo sapiens with 48 samples.

Results

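PKM and SLC2A1, which carry glucose use, and ADM, DDIT4, NDRG1 and NDUFA4L2, which cells induce when oxygen is low, are the 6 hypoxia response and glycolysis genes followed here, among 327 targeted genes of a pooled CRISPR knockout screen. They were chosen by name, and all 6 were found in each of the 5 deposited tables. The screen asked which genes squamous carcinoma cells need to grow in culture and which they need to form tumors. Its 3 human lines were A-431 (A431 below), from an epidermoid carcinoma, CAL27, from a tumor of the tongue, and SCC-13 (SCC13), from a squamous tumor of the skin. Cells of all groups, the initial ones included, carried a stable Cas9 transgene delivered with pLEX_Cas9 virus under blasticidin selection, and a guide library added at a multiplicity of 0.3 under puromycin selection. Later samples were 2 cultures of A431 and 2 of CAL27 after 3 weeks, and tumors taken after about 2 months from the rear flank: 8 of A431 and 10 of CAL27 in SHO mice, and 16 of SCC13 in NOD.Cg-Prkdcscid Il2rgtm1Wjl/SzJ mice. Every set was read against 2 samples of the cells as they were at the start. The labels do not say whether the Cas9 lines were single clones, whether a mouse bore more than 1 tumor or whether cultures were separate, so the spread behind each p-value is that of these columns and may be partly technical. Host cells carry no guide, so the readout comes from the injected human cells.

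Tumor tissue is often poor in oxygen, and cells then stabilise hypoxia-inducible factors (HIF), which switch on genes for glucose uptake, glycolysis, blood vessel signals and a lower mitochondrial demand for oxygen. SLC2A1 encodes GLUT1, the main glucose transporter of squamous cells, and PKM encodes pyruvate kinase, which catalyses the last step of glycolysis. ADM encodes the secreted vasodilator peptide adrenomedullin, DDIT4 (REDD1) an inhibitor of the growth kinase complex mTORC1, NDRG1 a stress-responsive protein studied as a suppressor of metastasis, and NDUFA4L2 a mitochondrial protein that lowers respiration in hypoxia. The screen reads the effect of losing each gene on the number of cells that carry its guides, not the gene's expression.

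The deposited values are log fold changes of guide abundance per gene, with an unstated log base, and are called log units. In each table the row of the non-targeting guides is 0. No header gives the direction. FEN1 and DNMT1, which serve DNA replication and its methylation, had deposited means from -1.74 to -3.67 and from -1.84 to -5.15 log units over the 5 tables, and a negative value is read here as loss of the knockout. Each value column stands for 1 culture or tumor and carries no sample number, so "tumor 3" means the third value column. Values below are distances from the median gene of the same column, unless they are given relative to the non-targeting guides. The median gene itself lay between -0.55 and -0.07 in tumors of A431, between -1.50 and -0.56 in those of CAL27 and between -2.67 and 0.53 in those of SCC13. The SD over all genes ranged from 0.50 to 0.59 in the 4 cultures, from 0.42 to 1.34 in A431 tumors, from 1.09 to 2.23 in CAL27 tumors and from 1.89 to 2.87 in SCC13 tumors, so a change of a given size stands out less in CAL27 and least in SCC13. Read depth is unknown.

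In SCC13 tumors many genes moved in lockstep, meaning that 4 or more genes differed between 2 columns by exactly the same amount to 6 decimals. Between 8 genes (tumor 8) and 145 genes (tumor 7) per tumor did so. Their values were not 1 shared level: in tumor 3 the 136 genes in lockstep ranged from -1.50 to 5.61 log units from the median gene. PKM was among them in 13 of 16 SCC13 tumors, SLC2A1 in 9, NDRG1 in 5, DDIT4 in 4, and ADM and NDUFA4L2 in 0, and none of the 6 genes was in A431 or CAL27 tumors. A value in lockstep carries a difference between columns that is not particular to its gene. In 5 SCC13 tumors over 100 genes were in lockstep, and results are also given for the other 11. Those 11 still held from 8 (tumor 8) to 98 (tumor 11) genes in lockstep, so leaving out the 5 does not remove the lockstep.

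HIF binds DNA at a short core, spelled here as ACGTG or GCGTG. RefSeq promoter sequences (GRCh38.p14) were on hand for 4 of the 6 genes, PKM, SLC2A1, ADM and DDIT4. In the 250 bases before the start, on either strand, ADM had 1 match and DDIT4 had 3, and PKM and SLC2A1 had 0. Of all 35116 promoters in that table, 43.2% hold at least 1, so a match is common and is given as a description of the letters only. The stretches around 1 match of each, both on the plus strand, are shown to set the hypoxia-induced members' sequence beside their values, with the core in capitals. ADM is at chr11:10304947-10305001, from 126 to 72 bases before the start. DDIT4 is at chr10:72273774-72273828, from 150 to 96 bases before the start.
ADM: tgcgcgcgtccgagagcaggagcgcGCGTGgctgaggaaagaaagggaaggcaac
DDIT4: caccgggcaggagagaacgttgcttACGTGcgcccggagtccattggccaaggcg

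PKM knockouts were lost in each line and setting. In A431 culture PKM stood at -1.66 and -1.38 log units in the 2 cultures, a mean of -1.52 ± 0.20 (SD, n = 2, limma adjusted p = 0.0104), and in CAL27 culture at -3.26 and -2.44, a mean of -2.85 ± 0.58 (n = 2, limma adjusted p = 0.0105). With 2 cultures, these tests rest on the spread pooled over genes. PKM had the 7th lowest mean of 327 genes in A431 culture and the 2nd lowest in CAL27 culture.

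In A431 tumors PKM ranged from -2.08 (tumor 7) over a median of -1.03 to -0.44 (tumor 3), and all 8 tumors lay below the median gene. The mean was -1.04 ± 0.58 log units (SD, n = 8, limma adjusted p = 0.00459). In CAL27 tumors it ranged from -5.67 (tumor 3) over a median of -2.61 to -0.54 (tumor 1), below the median gene in 10 of 10, with a mean of -3.09 ± 1.89 (n = 10, limma adjusted p = 3.33e-05). The CAL27 tumors formed a wide range, with 4 tumors at -4.82 or lower and 3 tumors at -1.19 or higher. In SCC13 tumors PKM ranged from -4.90 (tumor 2) over a median of -2.96 to -0.08 (tumor 3), with a mean of -2.88 ± 1.31 (n = 16, limma adjusted p = 6.49e-08). Every SCC13 tumor lay below the median gene. PKM was in lockstep in 13 of the 16, the lowest (tumor 2) included, and in tumor 3 it was 1 of 136 such genes. Over the 11 SCC13 tumors with fewer genes in lockstep the mean was -3.42 (limma adjusted p = 2.92e-07). PKM was still in lockstep in tumors 1, 2, 4, 10, 11, 13, 14 and 16 of these 11. Over all 16 tumors the mean was -4.50 against the non-targeting guides (limma adjusted p = 1.73e-12). PKM lay below those guides in 15 of 16 tumors and above them in tumor 3, at 0.45.

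SLC2A1 knockouts were lost in culture of both lines and in CAL27 and SCC13 tumors, while in A431 tumors they lay above the median gene in 7 of 8. The values were -1.51 and -1.11 log units in the A431 cultures (mean -1.31 ± 0.28, SD, n = 2, limma adjusted p = 0.0129) and -1.34 and -1.10 in the CAL27 cultures (mean -1.22 ± 0.17, n = 2, limma adjusted p = 0.00891). The 4 cultures of the 2 lines thus overlapped.

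In A431 tumors SLC2A1 ranged from -0.82 (tumor 8) over a median of 0.50 to 0.88 (tumor 6). It lay above the median gene in 7 of 8 tumors and above both cultures in 8 of 8. The mean of 0.36 ± 0.58 log units (SD, n = 8) did not pass the test (limma adjusted p = 0.266). The mean was 0.09 ± 0.66 when set against the non-targeting guides. In CAL27 tumors it ranged from -4.97 (tumor 6) over a median of -1.31 to -0.49 (tumor 10), below the median gene in 10 of 10 (mean -2.30 ± 1.73, n = 10, limma adjusted p = 0.000355). In SCC13 tumors it ranged from -4.49 (tumor 4) over a median of -2.70 to 0.94 (tumor 5), below the median gene in 15 of 16 (mean -2.48 ± 1.46, n = 16, limma adjusted p = 2.4e-06). Tumor 5 was the only SCC13 tumor in which SLC2A1 lay above the median gene, and its 13 genes in lockstep were the second fewest of the 16. In tumor 8, which had the fewest (8), SLC2A1 stood at -1.83. SLC2A1 was itself in lockstep in 9 of the 16 SCC13 tumors, the lowest (tumor 4) included. The SCC13 mean was -4.10 against the non-targeting guides (limma adjusted p = 5.99e-11).

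**Figure D1:**
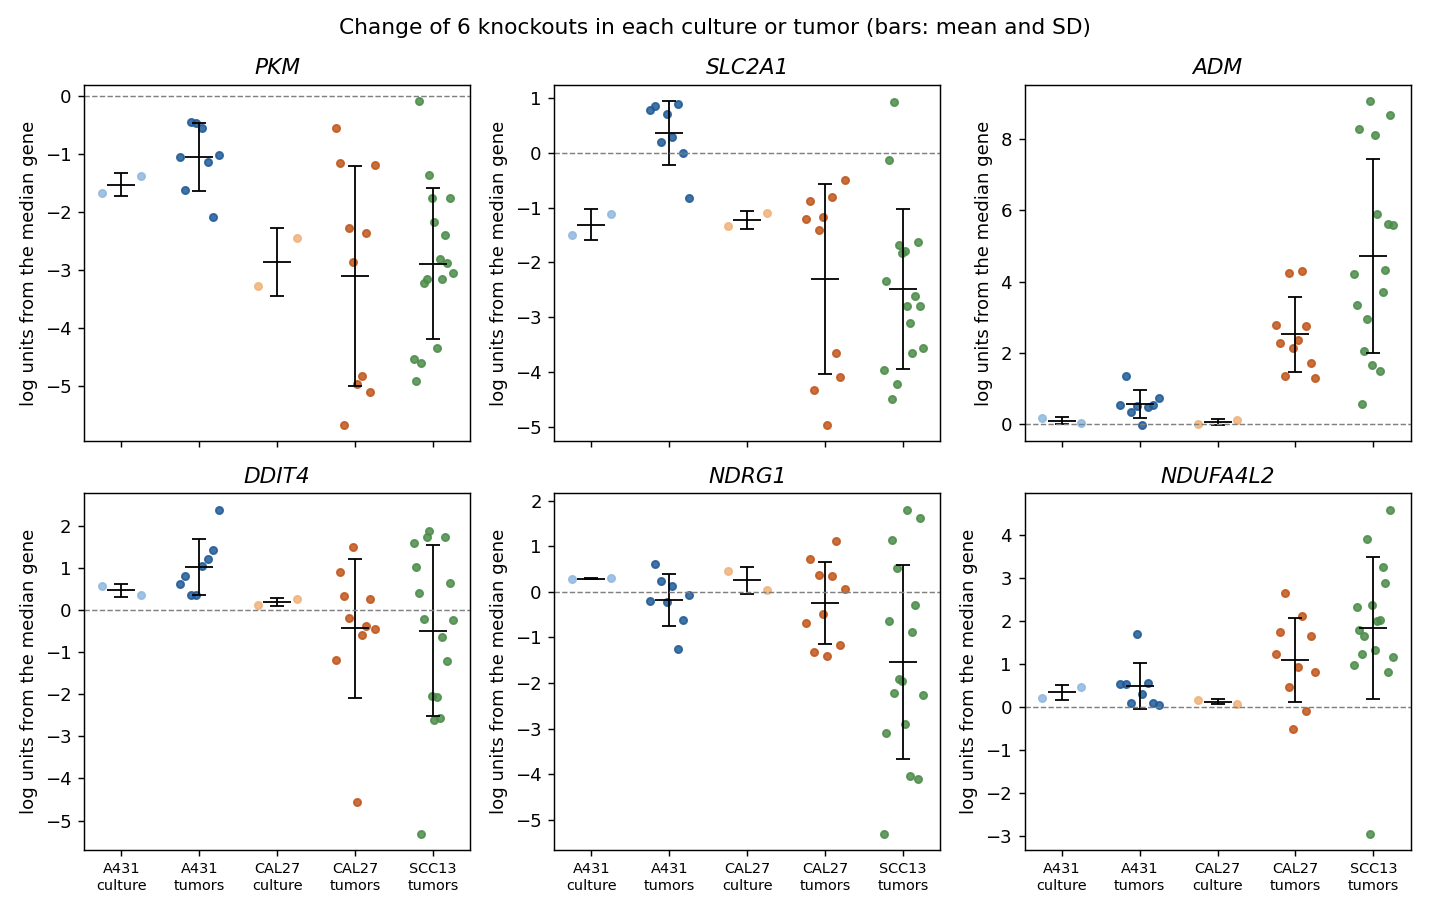
Distance of each knockout from the median gene (y axis, log units; the scale differs by panel) in every culture or tumor (points), by line and setting (x axis), with the mean and SD as bars. PKM lies below 0 in all 38 columns, SLC2A1 lies above 0 in 7 of 8 A431 tumors, and ADM reaches 9.06 in SCC13 tumors.

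The 2 glycolysis genes were set side by side within each tumor. In A431 tumors PKM lay below SLC2A1 in 8 of 8, by -1.40 ± 0.81 log units (SD, n = 8, exact two-sided sign-flip permutation test, p = 0.00781, the smallest that 8 tumors allow, adjusted p = 0.0234 over the 3 tumor tables). In CAL27 tumors PKM was lower in 7 of 10 (-0.79 ± 1.45, n = 10, exact sign-flip permutation p = 0.102, adjusted p = 0.152), and in SCC13 tumors in 7 of 16 (-0.40 ± 1.38, n = 16, exact sign-flip permutation p = 0.287, adjusted p = 0.287). Without CAL27 tumor 8 the CAL27 difference was -1.02 (exact permutation adjusted p = 0.0352). Without CAL27 tumor 7 it was -0.43 (adjusted p = 0.287, exact permutation test). The SCC13 difference was -0.15 without tumor 5 and -0.26 without tumor 2. PKM was in lockstep in 13 of the 16 SCC13 tumors and SLC2A1 in 9, with both in tumors 1, 3, 4, 7, 9, 11, 12 and 16. The SCC13 differences may therefore not be separate measurements of the 2 genes, which the permutation test takes them to be. In culture PKM was lower in each of the 4 cultures, by a mean of -0.21 in A431 and -1.63 in CAL27, with no test at 2 cultures. The guides of the 2 genes differ, so this compares these knockouts' readouts and not the 2 steps of glycolysis.

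**Figure D2:**
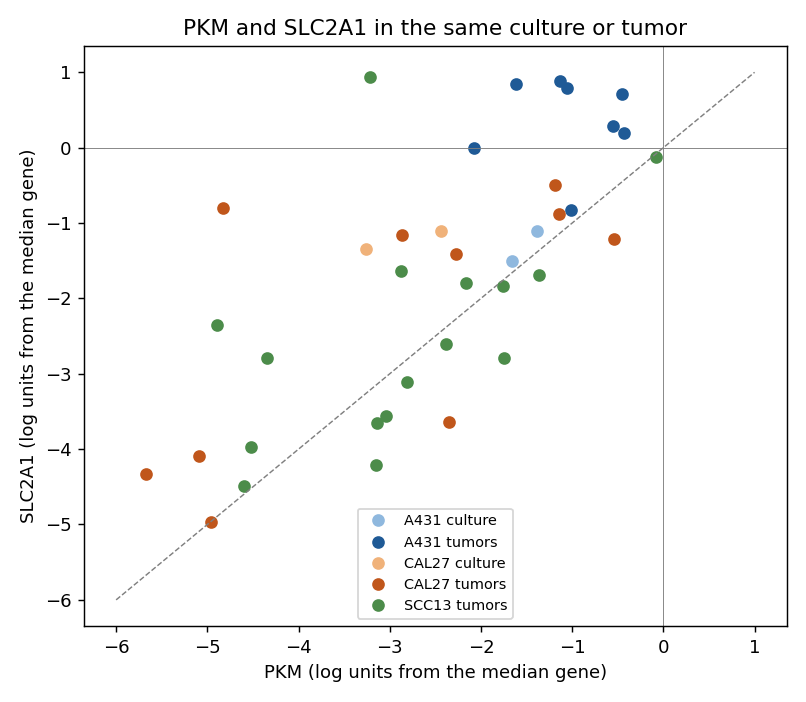
SLC2A1 (y axis) against PKM (x axis) in the same culture or tumor, both as log units from the median gene; the dashed line marks equal values. The 8 A431 tumors all lie above the line, with PKM minus SLC2A1 between -2.47 and -0.19 log units, while CAL27 and SCC13 tumors lie on both sides.

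ADM knockouts lay above the median gene in every CAL27 and SCC13 tumor and in 7 of 8 A431 tumors, and stood near it in culture. The values were 0.17 and 0.03 log units in A431 culture and 0.00 and 0.11 in CAL27 culture, and neither mean passed (0.10 ± 0.10 and 0.06 ± 0.08, SD, n = 2 each, limma adjusted p = 0.569 and 0.568). In 1 culture of each line ADM held exactly the same value as other genes (8 in A431 culture 2 and 9 in CAL27 culture 1). No tumor value of ADM was shared.

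In A431 tumors ADM ranged from -0.02 (tumor 5) over a median of 0.53 to 1.35 (tumor 2), with a mean of 0.57 ± 0.38 log units (SD, n = 8, limma adjusted p = 0.0462). This call was lost when any 1 of the tumors other than tumor 5 was left out (limma adjusted p from 0.0666 to 0.112), and also against the non-targeting guides (mean 0.29, limma adjusted p = 0.312). In CAL27 tumors ADM ranged from 1.29 (tumor 10) over a median of 2.32 to 4.30 (tumor 7). It was above the median gene and above the non-targeting guides in 10 of 10, with a mean of 2.52 ± 1.05 (n = 10, limma adjusted p = 6.84e-06) and of 1.71 relative to the non-targeting guides (limma adjusted p = 0.000561). In SCC13 tumors ADM ranged from 0.57 (tumor 4) over a median of 4.27 to 9.06 (tumor 7), above the median gene in 16 of 16 and above the non-targeting guides in 14 of 16. The mean was 4.72 ± 2.73 (n = 16, limma adjusted p = 7.44e-13); against the non-targeting guides it was 3.10 (limma adjusted p = 1.05e-06). In CAL27 and SCC13 tumors it had the 2nd highest mean of all genes.

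Within SCC13 the ADM values fell into 2 sets. Tumors 3, 7, 9 and 15 had values from 8.10 to 9.06, and the other 12 from 0.57 to 5.89. The 4 high tumors had 101 to 145 genes in lockstep and the other 12 had 8 to 102, and the part of the lockstep in the high values was not tested. Over the 11 tumors with fewer genes in lockstep the ADM mean was 3.43 (limma adjusted p = 1.56e-06).

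**Figure D3:**
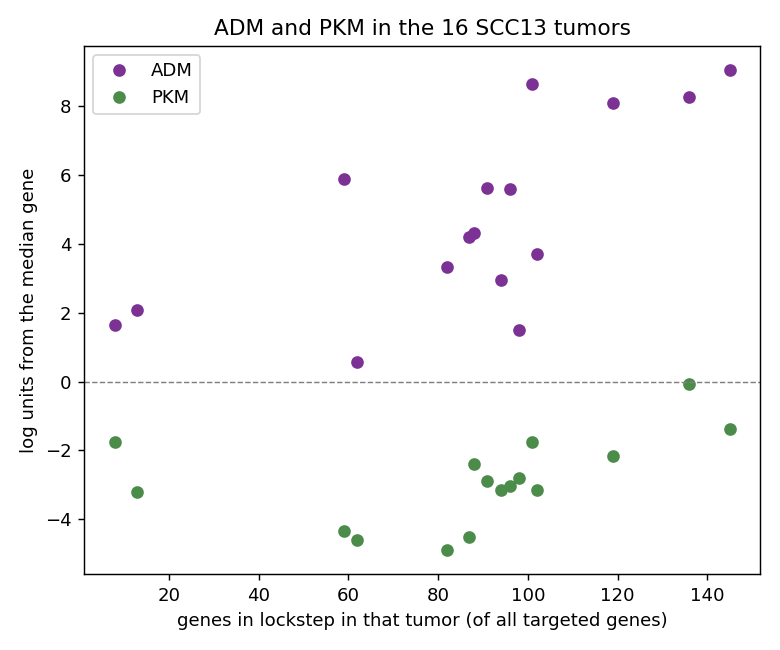
ADM and PKM (y axis, log units from the median gene) in the 16 SCC13 tumors against the number of genes in lockstep in that tumor (x axis, of all targeted genes). The 4 tumors with ADM at 8.10 or higher have 101 or more such genes, and PKM stays below 0 throughout.

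NDUFA4L2 knockouts lay above the median gene in nearly every tumor. The cultures held 0.23 and 0.47 log units in A431 and 0.18 and 0.09 in CAL27, and neither mean passed (0.35 ± 0.17 and 0.14 ± 0.07, SD, n = 2 each, limma adjusted p = 0.148 and 0.246). A431 tumors ranged from 0.06 (tumor 8) over a median of 0.42 to 1.72 (tumor 4), above 0 in 8 of 8, and the mean of 0.49 ± 0.54 (n = 8) did not pass (limma adjusted p = 0.109). CAL27 tumors ranged from -0.50 (tumor 5) over a median of 1.10 to 2.65 (tumor 3), with a mean of 1.11 ± 0.98 (n = 10, limma adjusted p = 0.0105). SCC13 tumors ranged from -2.93 (tumor 7) over a median of 1.91 to 4.60 (tumor 15), above the median gene in 15 of 16, with a mean of 1.85 ± 1.66 (n = 16, limma adjusted p = 0.000434). Both rises are relative to the median gene only. Set against the non-targeting guides the means were 0.30 in CAL27 and 0.23 in SCC13 tumors (limma adjusted p = 0.473 and 0.693).

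DDIT4 knockouts rose in A431 tumors, where the gene had the 5th highest mean. The 8 tumors ranged from 0.35 (tumor 3) over a median of 0.93 to 2.39 (tumor 8), all above the median gene and 7 of 8 above the non-targeting guides. The mean was 1.03 ± 0.67 log units (SD, n = 8, limma adjusted p = 0.00776); against the non-targeting guides it was 0.75 (limma adjusted p = 0.0273). The A431 cultures held 0.59 and 0.37, a mean of 0.48 ± 0.15 (n = 2, limma adjusted p = 0.0806), and the CAL27 cultures 0.13 and 0.26, a mean of 0.20 ± 0.09 (n = 2, limma adjusted p = 0.158).

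In tumors of the other 2 lines DDIT4 lay on both sides of the median gene. CAL27 tumors ranged from -4.56 (tumor 6) over a median of -0.29 to 1.50 (tumor 5), with a mean of -0.43 ± 1.64 (SD, n = 10, limma adjusted p = 0.447), which was 0.03 without tumor 6. SCC13 tumors ranged from -5.31 (tumor 4) over a median of -0.23 to 1.89 (tumor 7), with a mean of -0.49 ± 2.03 (n = 16, limma adjusted p = 0.415). DDIT4 was in lockstep in SCC13 tumors 3, 4, 9 and 11. Relative to the non-targeting guides both means were negative and passed, at -1.25 in CAL27 (limma adjusted p = 0.0350) and -2.11 in SCC13 (limma adjusted p = 0.000197).

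NDRG1 knockouts fell in SCC13 tumors and did not pass elsewhere with centred values and limma's standard prior. SCC13 tumors ranged from -5.30 (tumor 1) over a median of -1.94 to 1.80 (tumor 10), below the median gene in 12 of 16, with a mean of -1.54 ± 2.13 log units (SD, n = 16, limma adjusted p = 0.00483). Tumors 4, 6, 10 and 15 were the 4 above it. NDRG1 was in lockstep in tumors 1, 7, 9, 11 and 14, all below the median gene. The cultures held 0.28 and 0.30 in A431 and 0.46 and 0.03 in CAL27, with means of 0.29 ± 0.02 and 0.25 ± 0.30 (n = 2 each, limma adjusted p = 0.166 and 0.277). In CAL27 culture NDRG1 was called higher with a robust prior (limma adjusted p = 0.0480), where 44 of 327 genes were. Against the non-targeting guides it was called lower there (-0.23, limma adjusted p = 0.0406), where 89.6% of genes were. A431 tumors ranged from -1.26 (tumor 6) to 0.62 (tumor 2), a mean of -0.17 ± 0.57 (n = 8, limma adjusted p = 0.600), and CAL27 tumors from -1.41 (tumor 6) to 1.12 (tumor 8), a mean of -0.24 ± 0.90 (n = 10, limma adjusted p = 0.587). The CAL27 tumor mean was -1.06 when set against the non-targeting guides and passed (limma adjusted p = 0.0136), and that of SCC13 was -3.15 (limma adjusted p = 2.53e-07).

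By count, 2 of the 6 genes fell and 0 rose in A431 culture, where 11.3% of all genes were lower and 2.14% higher by the same test. In CAL27 culture 2 fell and 0 rose, against 18.7% and 4.89% of all genes. In A431 tumors 1 fell and 2 rose, against 11.9% and 7.95%. The exact permutation test called 0 genes in A431 tumors after adjustment, where 51 lower and 49 higher genes had an unadjusted p under 0.05. In CAL27 tumors 2 fell and 2 rose, against 22% and 18.7%, and in SCC13 tumors 3 fell and 2 rose, against 23.9% and 23.5%. The split of the whole tables moved with the centring. Set against the non-targeting guides, A431 culture had 136 genes (41.6%) lower and 1 higher, in place of 37 and 7, and 2 of the 6 genes fell. In CAL27 culture 293 genes (89.6%) were lower and 0 higher, in place of 61 and 16, and all 6 genes fell, ADM, DDIT4, NDRG1 and NDUFA4L2 with a changed sign. The A431 culture means of ADM (-0.26), NDRG1 (-0.07) and NDUFA4L2 (-0.01) also changed sign and did not pass. In A431 tumors 73 genes (22.3%) were lower and 7 (2.14%) higher, in place of 39 and 26, with PKM lower and DDIT4 higher. In CAL27 tumors 164 genes (50.2%) were lower and 18 (5.5%) higher, in place of 72 and 61, with PKM, SLC2A1, DDIT4 and NDRG1 lower and ADM higher. In SCC13 tumors 220 genes (67.3%) were lower and 13 (3.98%) higher, in place of 78 and 77, with the same 4 genes lower and ADM higher. The median of the 6 means was 0.43 log units in tumors of A431, -0.34 in those of CAL27 and -1.01 in those of SCC13, while the median over all genes was 0.02, 0.01 and -0.02. In culture it was 0.20 in A431 and 0.10 in CAL27, against 0.01 and 0.00. Over the 11 SCC13 tumors with fewer genes in lockstep, the same 3 genes fell and the same 2 rose, where 85 of all 327 genes were lower and 63 higher.

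Tumors were next set directly against culture of the same line. Cultures ran for 3 weeks and tumors for about 2 months, each read against its own initial cells. Setting and time therefore cannot be told apart in these differences. The difference was largest for SLC2A1 in A431, whose tumor mean lay 1.67 log units (SE 0.45) above the culture mean, and for ADM in CAL27, whose tumor mean lay 2.46 (SE 0.78) above it. All 8 A431 tumors lay above both A431 cultures for SLC2A1, a separation that 6.73% of all genes showed. All 10 CAL27 tumors lay above both CAL27 cultures for ADM, which 6.12% of genes showed. With 1 spread for tumors and cultures neither passed (limma adjusted p = 0.187 and 0.198), and 0% of genes were called lower or higher in either line, although 20 genes in A431 and 30 in CAL27 had an unadjusted limma p under 0.05. The exact permutation test gave p = 0.0222 for SLC2A1 in A431, the smallest that 2 against 8 columns allow, and p = 0.0303 for ADM in CAL27, and called 0 genes after adjustment (adjusted p = 0.519 and 0.513). Cultures varied less than tumors. With a spread of its own for each setting, SLC2A1 in A431 (limma adjusted p = 0.00125), ADM in CAL27 (limma adjusted p = 5.69e-05) and NDUFA4L2 in CAL27 (0.97, limma adjusted p = 0.0441) passed, where 4.28% of genes in A431 and 16.5% in CAL27 were called higher and 3.36% and 14.4% lower.

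The other differences between tumors and culture did not pass with 1 spread for both settings. PKM differed by 0.48 (SE 0.45) in A431 and by -0.24 (SE 1.14) in CAL27, where 5 of 10 tumors lay on either side of the culture mean and the difference was 0.05 without tumor 3 and 0.17 without culture 2. SLC2A1 differed by -1.08 (SE 1.06) in CAL27, again with 5 of 10 tumors on either side. DDIT4 differed by 0.55 (SE 0.49) and -0.63 (SE 1.02), NDRG1 by -0.46 (SE 0.44) and -0.49 (SE 0.73), and NDUFA4L2 by 0.14 (SE 0.43) in A431 and 0.97 (SE 0.76) in CAL27, with limma adjusted p between 0.750 and 0.985 for these 3 genes. Without tumor 4 the NDUFA4L2 difference in A431 was -0.03. When each column was divided by its SD over genes, the PKM difference was 1.91 SD in A431 (limma adjusted p = 0.0221) and 3.09 SD in CAL27 (limma adjusted p = 0.0116), so the CAL27 difference changed sign on that scale.

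**Figure D4:**
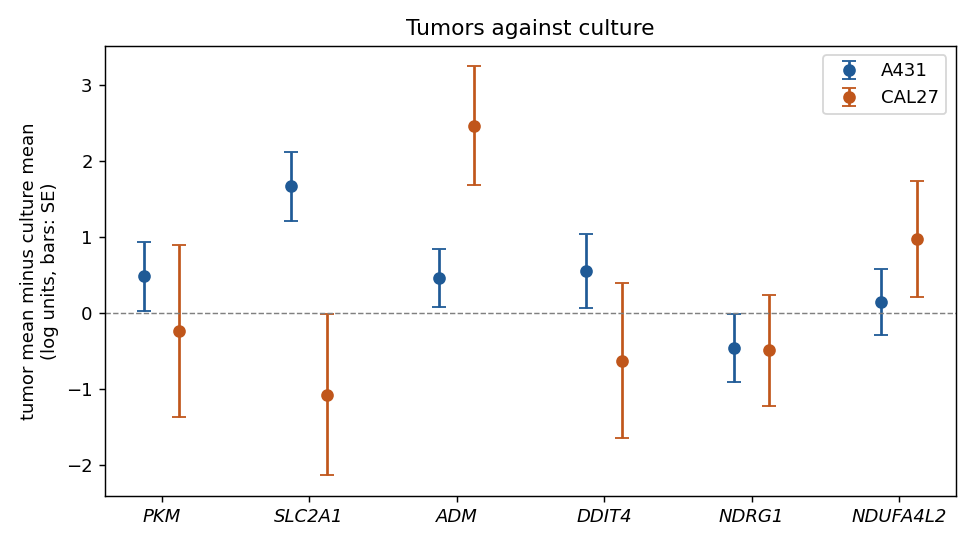
Difference between the tumor mean and the culture mean (y axis, log units, bars are the SE of the fit) for the 6 genes in A431 (8 tumors, 2 cultures) and CAL27 (10 tumors, 2 cultures). SLC2A1 lies at 1.67 in A431 and at -1.08 in CAL27, and ADM at 0.46 and 2.46.

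The difference between tumors and culture was then compared between the 2 lines that had both. The tumor-minus-culture difference of SLC2A1 was 2.75 log units lower in CAL27 than in A431 (difference -2.75, SE 1.28), and that of ADM was 2.00 higher (SE 0.91). Neither passed with 1 spread (limma adjusted p = 1.00 for both), where 0% of genes did and 9 had an unadjusted p under 0.05. Both passed with a spread per group (limma adjusted p = 0.00218 for both), where 7.03% of genes were called lower and 6.12% higher. In culture alone no member differed between CAL27 and A431 with 2 cultures each, where 2.75% of genes were lower and 0.306% higher in CAL27. PKM came closest, at -1.33 (SE 0.28, limma adjusted p = 0.0632), and passed relative to the non-targeting guides (-1.45, limma adjusted p = 0.0361), where 6.42% of genes were lower.

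Among tumors of the 3 lines, SLC2A1, ADM and PKM differed by the moderated F test (limma adjusted p = 0.000957, 7e-05 and 0.0270), 3 of 6 genes against 26.6% of all genes. SCC13 tumors grew in another mouse strain than those of A431 and CAL27. In every comparison with SCC13, here and below, line and mouse strain therefore cannot be told apart. SLC2A1 was lower in CAL27 than in A431 tumors by -2.66 log units (SE 0.68, limma adjusted p = 0.00848), where 3.06% of genes were lower, and lower in SCC13 than in A431 tumors by -2.84 (SE 0.62, limma adjusted p = 0.000714), where 10.7% were lower. Both calls held in every alternative run, with adjusted p of at most 0.0337 and 0.0050. CAL27 and SCC13 tumors did not differ in SLC2A1 beyond their spread (-0.18, SE 0.58, limma adjusted p = 0.874, and 0.02 without CAL27 tumor 10). The A431 and CAL27 tumors overlapped in range only at 1 point, since A431 tumor 8 at -0.82 lay below 2 CAL27 tumors, those at -0.80 and -0.49.

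ADM was higher in SCC13 than in A431 tumors by 4.15 log units (SE 0.74, limma adjusted p = 6.01e-05), where 10.4% of genes were higher. It was higher in SCC13 than in CAL27 tumors by 2.20 (SE 0.69, limma adjusted p = 0.0184), where 9.79% were higher. The call between SCC13 and CAL27 was lost without the 5 SCC13 tumors with over 100 genes in lockstep (0.91, limma adjusted p = 0.279) and against the non-targeting guides (1.39, limma adjusted p = 0.178). It was also lost with SD-scaled columns (0.59 SD, limma adjusted p = 0.252) and by the permutation test (adjusted p = 0.117). CAL27 stood above A431 by 1.96 (SE 0.81), which did not pass with 1 spread for all lines (limma adjusted p = 0.183, with 0.306% of genes higher) and passed with a spread per line (limma adjusted p = 0.00220), where 8.56% of genes were higher. This ADM difference also passed by the permutation test (adjusted p = 0.0112) and by robust regression (limma adjusted p = 0.0342), where 27 and 16 of 327 genes were higher. Without the 5 SCC13 tumors with over 100 genes in lockstep it passed too (limma adjusted p = 0.0467), where 3 genes were higher. It did not pass against the non-targeting guides or with SD-scaled columns. PKM was lower in SCC13 than in A431 tumors by -1.84 (SE 0.62, limma adjusted p = 0.0259). That call was lost without A431 tumor 3, 4 or 5 (limma adjusted p = 0.0557, 0.0542 and 0.0520), as was the F test of PKM (limma adjusted p = 0.0607, 0.0567 and 0.0572). After division by each column's SD the PKM difference was -0.10 SD (limma adjusted p = 0.896), and against the non-targeting guides it was -3.18 (limma adjusted p = 0.000297). PKM in CAL27 against A431 tumors differed by -2.05 (SE 0.68, limma adjusted p = 0.0659), which passed without CAL27 tumor 1, 2 or 10 (limma adjusted p = 0.0321, 0.0447 and 0.0426). It also passed with a spread per line (limma adjusted p = 0.000781), where 14.7% of genes were lower, and by robust regression (limma adjusted p = 0.0163). Further passes came against the non-targeting guides (-2.59, limma adjusted p = 0.0223) and without the 5 SCC13 tumors with over 100 genes in lockstep (limma adjusted p = 0.0386). PKM did not pass in this pair with SD-scaled columns or by the permutation test. Set against the non-targeting guides, CAL27 had 7.34% of genes lower and 0.306% higher than A431 tumors, SCC13 had 37% lower and 1.53% higher than A431 tumors, and 20.8% lower and 3.67% higher than CAL27 tumors. DDIT4, NDRG1 and NDUFA4L2 did not pass in any of the 3 pairs of lines with centred values and 1 spread for all columns. SCC13 against A431 tumors differed by -1.52 for DDIT4, -1.36 for NDRG1 and 1.35 for NDUFA4L2 (limma adjusted p = 0.111, 0.139 and 0.109), and all 3 passed with a spread per line, where 12.5% of genes were lower and 15.3% higher (limma adjusted p = 0.0385, 0.0407 and 0.0307). NDUFA4L2 also passed without SCC13 tumor 7 (1.67, limma adjusted p = 0.0204) and without the 5 SCC13 tumors with over 100 genes in lockstep (1.46, limma adjusted p = 0.0319). Against the non-targeting guides DDIT4 (-2.86, limma adjusted p = 0.00167) and NDRG1 (-2.71, limma adjusted p = 0.00284) were lower in SCC13 than in A431 tumors, and NDRG1 in SCC13 than in CAL27 tumors (-2.10, limma adjusted p = 0.0184). With SD-scaled columns DDIT4 was lower in CAL27 (-1.30 SD, limma adjusted p = 0.0209) and in SCC13 (-1.38 SD, limma adjusted p = 0.00384) than in A431 tumors.

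Of other genes of glycolysis and the hypoxia response listed by name, 4 are described here, all of the hypoxia part: the transcription factors BHLHE40 and KLF6, ID2, which restrains such factors, and the metallothionein MT1X. No other glycolytic enzyme on the list was targeted, so PKM and SLC2A1 have no companion here. In A431 culture 0 of these 4 passed limma's test, with means from -0.14 (MT1X) to 0.34 (ID2) log units. In CAL27 culture ID2 rose to 0.45 (limma adjusted p = 0.0403) and the other 3 did not pass, while against the non-targeting guides ID2 stood at -0.03. In A431 tumors 0 of the 4 passed, with means from -0.08 (MT1X) to 0.45 (BHLHE40).

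In CAL27 tumors BHLHE40 rose to 1.30 ± 1.34 log units (SD, n = 10, limma adjusted p = 0.00989) and MT1X fell to -1.10 ± 1.63 (limma adjusted p = 0.0469). The MT1X call was lost without tumor 1, 2, 3, 4, 6, 8 or 10 (limma adjusted p from 0.0611 to 0.127). In SCC13 tumors BHLHE40 rose to 1.28 ± 2.29 (n = 16, limma adjusted p = 0.0215) and the other 3 did not pass. The BHLHE40 call was lost without tumor 1, 2, 10 or 12 (limma adjusted p from 0.0555 to 0.0691). Against the non-targeting guides BHLHE40 did not pass in CAL27 (0.49, limma adjusted p = 0.281) or SCC13 tumors (-0.34, limma adjusted p = 0.572). Over the 11 SCC13 tumors with fewer genes in lockstep BHLHE40 stood at 1.11 (limma adjusted p = 0.120), while KLF6 rose to 1.53 (limma adjusted p = 0.0110) and ID2 fell to -1.62 (limma adjusted p = 0.00677). ID2 was still in lockstep in tumors 11, 13, 14 and 16 of these.

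For each member the 3 genes with the most similar pattern were taken by Pearson correlation over the 38 columns, each scaled by its SD over genes. The columns share their lines and initial cells, so these are descriptions. PKM was most like BRCA1 (r = 0.61), SLC2A1 (0.60) and DNMT1 (0.58), and SLC2A1 was most like TUBA1C (0.70), PKM (0.60) and BRCA1 (0.59). ADM was most like TNFRSF12A (0.67), GRHL1 (0.63) and PRKCDBP (0.61). DDIT4 was most like JUNB (0.50), GLTP (0.48) and LAMA3 (0.47), NDRG1 most like STMN1 (0.50), EMP3 (0.49) and S100A2 (0.46), and NDUFA4L2 most like ALDH3B2 (0.51), ALDH2 (0.44) and APP (0.43). PKM and SLC2A1 were each among the other's 3 nearest genes, and none of the 4 hypoxia-induced members was among another member's 3. Of the 16 SCC13 columns, PKM was in lockstep in 13, SLC2A1 in 9, NDRG1 in 5, DDIT4 in 4, and ADM and NDUFA4L2 in 0. The part of the lockstep in these correlations was not tested.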

How the data were processed

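Bowtie2 is named in the submitters' processing notes, without a version. How guides were summarised per gene, and with what pseudocount, is not stated in the sources used here. The deposited values, in 5 tables, are the authors' log fold changes for 327 genes and a non-targeting row of 0, and hold no counts. The log base is unstated. Each column was centred on its median over genes. Each table was fitted with limma 3.58.1 in R 4.3.3 (intercept, eBayes) and tested against 0, and settings and lines were compared in joint fits of group means. P-values were adjusted over all 327 genes by the Benjamini-Hochberg method at 0.05. Joint fits assume that the tables, which the authors normalized column by column, share 1 log base and guide summary. No test holds the error of the initial cells. The members, lists and tests were chosen with earlier results of these data known. The 6 members are always named, with the listed pathway genes (1 is not reported here) and the 3 most similar genes of each member. Fits were tested on simulated data with noise drawn separately for each gene and column. Those data held no lockstep and no shared exact values, so they cannot show how the fits behave with these. Alternatives were deposited values, SD-scaled columns, a spread per group, a robust prior, robust regression, shared values set to missing, exact tests, leaving out each column and, chosen after seeing the data, leaving out SCC13 columns with over 100 genes in lockstep.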

Additional observations from a re-analysis of the deposited data

Results flagged for a closer look

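A tumor far from the others of its group was found in 2 of the 12 sets of values tested (6 genes in A431 and CAL27 tumors), where chance gives about 1 in 20. DDIT4 in CAL27 tumor 6 stood at -4.56 log units, and NDUFA4L2 in A431 tumor 4 at 1.72.

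Differences between lines under the same contrast, with another mouse strain for SCC13, passed the limma test for SLC2A1 between CAL27 and A431 tumors (-2.66) and between SCC13 and A431 tumors (-2.84). They also passed for PKM between SCC13 and A431 tumors (-1.84), and for ADM between SCC13 and A431 tumors (4.15) and between SCC13 and CAL27 tumors (2.20). The ADM difference between SCC13 and CAL27 tumors was lost against the non-targeting guides (1.39) and with SD-scaled columns (0.59 SD). It was also lost by the permutation test (adjusted p = 0.117) and without the SCC13 tumors with over 100 genes in lockstep (0.91). The PKM call was lost with SD-scaled columns (-0.10 SD, limma adjusted p = 0.896) and without A431 tumor 3, 4 or 5 (limma adjusted p = 0.0557, 0.0542 and 0.0520).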

How the results depend on the processing

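Settings were changed 1 at a time. Of the values of single genes, 415 kept their direction and side of the threshold, 42 gained a call, 12 lost one, 5 changed sign with a call in 1 of the settings and 12 changed sign with no call in either; leaving out 1 column at a time kept 1281, with 5 gained, 13 lost and 33 that changed sign with no call. Relative to the non-targeting guides CAL27 culture means changed sign for ADM (-0.42), DDIT4 (-0.28), NDRG1 (-0.23) and NDUFA4L2 (-0.35), and uncalled A431 culture means for ADM (-0.26), NDRG1 (-0.07) and NDUFA4L2 (-0.01). SD-scaled columns turned the CAL27 tumor-culture difference of PKM to 3.09. The number of the 6 genes called moved by over 1.5 times as follows, and the cause was not tested. Relative to the non-targeting guides it was 6 in CAL27 culture (2 by the main setting), 1 between cultures (0), 2 in CAL27 against A431 tumors (1), 5 in SCC13 against A431 tumors (3) and 5 by the F test (3). That F test called 42.2% of all genes, and the other shares are given above. SD-scaled columns gave 2 and 1 in tumors against culture of A431 and CAL27 (0 and 0), 2 in CAL27 against A431 tumors and 0 in SCC13 against CAL27 tumors (1). Of all 327 genes, 5 were then lower and 11 higher in A431, and 0 and 8 in CAL27. In the 2 pairs of lines 20 and 22 were lower, and 11 and 29 higher. A spread per group gave 1 and 2 in tumors against culture, 2 for the difference between them (0), 4 in CAL27 against A431 tumors and 6 in SCC13 against A431 tumors. In CAL27 against A431 tumors 14.7% of all genes were then lower and 8.56% higher, and the other shares are given above. Robust regression gave 3, 6 and 2 in CAL27 against A431, SCC13 against A431 and SCC13 against CAL27 tumors, and 5 by the F test. Of all 327 genes, 27, 51 and 51 were lower and 16, 60 and 67 higher in these pairs, and that F test called 153. The exact test gave 0 in A431 tumors (3), 2 in CAL27 against A431 tumors and 0 in SCC13 against CAL27 tumors. Of all 327 genes it called 0 in A431 tumors, 32 lower and 27 higher in CAL27 against A431, and 18 and 23 in SCC13 against CAL27. Shared values set to missing gave 1 between cultures, where 14 of 319 genes were lower and 2 higher. Without the SCC13 columns with over 100 genes in lockstep it was 3 in CAL27 against A431 tumors, through the pooled spread, and 0 in SCC13 against CAL27 tumors. Of all 327 genes, 18 and 39 were then lower and 3 and 39 higher. Leaving out 1 column gave 1 to 2 in CAL27 against A431 tumors, and moved PKM minus SLC2A1 in CAL27 tumors between -1.02 and -0.43, and in SCC13 tumors between -0.50 and -0.15. Among smaller moves, a robust prior gave 3 in culture of A431 and of CAL27. It called 41 of all genes lower and 16 higher in A431, and 84 and 44 in CAL27. Without the lockstep columns the number was 4 in SCC13 against A431 tumors, where 46 genes were lower and 40 higher. The F test with a spread per group gave 4, against 39.1% of all genes. Leaving out 1 column gave 2 to 3 in A431 tumors, and 2 to 4 in SCC13 against A431 tumors and by the F test. Leaving out 1 of 2 cultures gave values with no test against initial cells. The 1281 include these values, for which no call could change. They also include pairs of lines fitted without a column of the third line, where the difference itself could not move.

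No paired analysis was possible because the value columns carry no replicate numbers. Depth is unknown, so no counting error can be given.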
